A study of Mus musculus with 12 samples.

Results

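Collagens are the main structural proteins of the extracellular matrix, and this account describes their transcripts in mouse adipose tissue on a high-fat diet (HFD). The genes were chosen by name: every gene whose array annotation symbol is Col, a type number, the letter a and a chain number. This gave 42 of the 18193 genes with a symbol of their own on the array, and where a gene has several probe sets, the brightest on average across the 12 arrays stands for it. They comprise 11 fibrillar collagens, 8 basement membrane collagens (type IV chains and the multiplexins Col15a1 and Col18a1) and 23 others. A filter on low signal, the 40th percentile of probe set means at 7.64 log2 units, was passed by 34 of them: 9 fibrillar, 8 basement membrane and 17 others. Just outside it lay Col6a5 with a mean of 7.21 and Col9a2 with 7.40, and just inside it Col22a1 with 7.73 and Col11a2 with 7.75.

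RNA from adipose tissue of C57Bl/6 mice was hybridised to single-colour Affymetrix arrays, 1 per sample and 4 per group. The chow group stayed on a diet with 13% of its calories as fat. The other groups ate chow to an age of 6 weeks and then an HFD with 46% of calories as fat for 5 or for 14 days. The labels call the samples replicates and name neither the fat depot nor how old the chow mice were when sampled, so age and diet cannot be told apart, and each p measures the spread between these samples. Values are the deposited signals, which ran from 4.18 to 15.5 with array medians of 8.09 to 8.14. Their log base is not stated. It was judged to be log2 from this range and these medians, and every fold rests on that reading. Arrays give no counts, so their number limits the precision.

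Adipocyte markers (8 of 8 measured) were high in every array, with list means of 13.81 to 14.21, as the label of adipose tissue requires. Some arrays also carried transcripts of other tissues. The mean of 5 epididymis and testis genes was 11.03, 11.29 and 11.67 in 5-day arrays 1 to 3 and 12.79 in 14-day array 4, against 7.08 to 8.22 in the other 8 arrays. Not all members moved with this mean. Gpx5 stayed at 7.82 to 8.52 in every array, and Lcn5 was higher in chow array 3 (8.78) than in 5-day array 1 (8.44). Skeletal muscle genes averaged 12.41 in 5-day array 2 and 12.75 in chow array 3, against 8.31 to 9.36 elsewhere. Liver genes varied in every group, with means of 8.84 to 12.58 in chow, 10.07 to 13.60 at 5 days and 9.84 to 13.22 at 14 days. In whole tissue, fewer cells of a type and less RNA per cell cannot be told apart.

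Each collagen molecule winds chains of 1 or more genes into a helix rich in glycine and proline. Types I and III build the thick interstitial fibres, and type V chains sit in the core of those fibres and help to set their diameter. Type IV chains form the sheet of the basement membrane, which surrounds every adipocyte and underlies the endothelium; Col4a1 and Col4a2 make its widespread form, while Col4a3 to Col4a6 are used in few tissues, the kidney glomerulus among them. Type VI forms beaded microfibrils next to cells and is abundant in fat. The fibril-associated collagens (FACIT) bind to the surface of fibres made by other types.

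The genes Col4a1 and Col4a2 lie head to head on chromosome 8 (Col4a1 at 11198423 to 11312889 and Col4a2 at 11312805 to 11449287, GRCm38.p6). Their annotated spans overlap by 85 bases, and the start sites used here are 21 bases apart on opposite strands. Promoter windows from RefSeq (250 bases before to 50 after the start) were matched for 33 of the 42 genes. Both windows of this pair are shown because the results for the pair were alike, with the 78 bases they share (11312777 to 11312854) in capitals. The Col4a1 window is chr8:11312777-11313076 on the minus strand, and that of Col4a2 is chr8:11312555-11312854 on the plus strand.
Col4a1: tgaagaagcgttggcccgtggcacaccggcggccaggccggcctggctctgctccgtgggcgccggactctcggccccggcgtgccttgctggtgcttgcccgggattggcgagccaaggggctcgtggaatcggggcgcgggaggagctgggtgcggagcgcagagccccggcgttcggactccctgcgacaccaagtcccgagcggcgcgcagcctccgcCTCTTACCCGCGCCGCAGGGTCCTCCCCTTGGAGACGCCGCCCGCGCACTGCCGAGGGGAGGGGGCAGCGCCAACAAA
Col4a2: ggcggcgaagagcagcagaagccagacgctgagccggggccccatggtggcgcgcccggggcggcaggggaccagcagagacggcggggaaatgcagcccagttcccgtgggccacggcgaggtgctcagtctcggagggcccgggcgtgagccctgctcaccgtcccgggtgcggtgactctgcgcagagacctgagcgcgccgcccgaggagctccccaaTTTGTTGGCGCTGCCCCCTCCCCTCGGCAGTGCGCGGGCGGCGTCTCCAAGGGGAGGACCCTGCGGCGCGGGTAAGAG

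The windows of Col5a3 and Col1a2 are shown as those of the fibrillar genes with the most positive difference at 5 days and the smallest p at 14 days. Col5a3, a type V chain, spans 20770050 to 20815117 of chromosome 9, with its window at chr9:20815018-20815317 on the minus strand. Col1a2, a type I chain, spans 4505618 to 4541543 of chromosome 6, with its window at chr6:4505368-4505667 on the plus strand. Capitals mark CCAAT boxes (CCAAT, on the other strand ATTGG) and GC boxes (GGGCGG, on the other strand CCGCCC).
Col5a3: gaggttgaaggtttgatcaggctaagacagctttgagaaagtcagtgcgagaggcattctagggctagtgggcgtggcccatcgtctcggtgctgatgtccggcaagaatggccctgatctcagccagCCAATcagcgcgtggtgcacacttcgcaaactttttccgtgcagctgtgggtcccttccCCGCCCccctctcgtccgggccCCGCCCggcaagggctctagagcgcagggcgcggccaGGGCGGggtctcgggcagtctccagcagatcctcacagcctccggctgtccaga
Col1a2: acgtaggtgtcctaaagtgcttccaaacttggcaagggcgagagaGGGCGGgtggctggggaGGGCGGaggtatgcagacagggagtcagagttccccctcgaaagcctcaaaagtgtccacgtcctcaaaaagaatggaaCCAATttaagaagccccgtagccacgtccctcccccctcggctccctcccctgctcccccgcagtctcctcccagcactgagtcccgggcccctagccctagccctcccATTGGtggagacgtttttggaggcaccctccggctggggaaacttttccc
Col5a3 holds 1 CCAAT box and 3 GC boxes, and Col1a2 holds 2 of each; TATAAA occurs in none of the 4 windows on either strand. Over the 29 windows of the 26 filter-passing collagens in the table, a CCAAT box occurred in 11, a GC box in 19 and TATAAA in 3. Over all 32851 windows the shares were 37.4%, 35.7% and 13.6%. Matches are a description of these letters only.

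The other type IV genes are paired as well. Col4a3 and Col4a4 (chromosome 1) overlap by 114 bases in the annotation, and Col4a5 and Col4a6 (chromosome X) are separated by 1274 bases. Among the fibrillar genes Col3a1 and Col5a2 are neighbours on chromosome 1 with 24624 bases between them, and Col6a1 and Col6a2 lie 85161 bases apart on chromosome 10.

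After 5 days of HFD, 8 abundant collagens had higher signal in all 4 HFD arrays than in any chow array: the type V chains Col5a1, Col5a2 and Col5a3, the basement membrane genes Col4a1, Col4a2 and Col15a1, and the type VI chains Col6a1 and Col6a2. Differences ran from 1.26-fold for Col4a1 to 1.70-fold for Col5a3. None of the 34 collagens passed an adjusted p of 0.05 in limma, nor did any of the 13312 genes tested (0%). The groups did not overlap upwards in 23.5% of collagens, against 6.49% of all genes, and downwards in 0 collagens, against 4.77% of all genes. At an unadjusted p under 0.05, 5 collagens (14.7%) were higher and 0 lower in limma, against 4.43% and 5.67% of all genes (10.1% in all); the groups did not overlap in 11.3% of all genes. The count of 5 was 1 without chow array 3 or 5-day array 4, 3 without chow array 1, 2 or 4 or 5-day array 1, and 8 without 14-day array 4, which enters through the shared spread. The count of 0 lower became 3 without chow array 1 or 5-day array 1. It became 2 without 14-day array 2, and 1 without 5-day array 2 or 14-day array 3.

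Col5a3 read 12.83, 12.77, 12.66 and 13.09 in the 5-day arrays, against 12.38, 12.15, 11.79 and 11.98 in chow. The lowest 5-day array lay above the highest chow array. Its difference was 0.76 ± 0.28 (log2, limma SE; adjusted p = 0.394). Col5a2 read 12.64, 12.44, 12.31 and 12.96 in the 5-day arrays, against 12.26, 12.20, 12.00 and 12.23 in chow. Col5a1 read 11.67, 11.54, 11.37 and 12.05 in the 5-day arrays, against 11.32, 11.37, 11.09 and 11.28 in chow; 5-day array 3 cleared the highest chow array only in the digits beyond these. For Col5a2 the difference was 0.42 ± 0.25 (adjusted p = 0.594 in limma) and for Col5a1 0.39 ± 0.26 (adjusted p = 0.641), the Col5a1 difference being 0.26 without 5-day array 4. All 3 type V chains were thus higher at 5 days, and array 4 was the highest of the 5-day arrays for each.

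In the probe sets used, the fibre-forming chains to which type V is bound were not higher together. Their second probe sets, also over the filter, differed by 0.20 (Col1a1), 0.17 (Col1a2) and 0.51 (Col3a1). The contrast with type V thus depends on the probe set. Col1a2 read 13.40, 13.21, 13.07 and 13.22 in the 5-day arrays, against 13.30, 13.49, 13.27 and 13.50 in chow, a difference of -0.16 ± 0.13 (adjusted p = 0.709 in limma). Col1a1, the other type I chain, read 12.35, 12.02, 11.78 and 12.10 in the 5-day arrays, against 11.94, 12.42, 12.15 and 12.34 in chow. Col3a1, the type III chain, read 14.49, 14.42, 14.27 and 14.54 in the 5-day arrays, against 14.34, 14.36, 14.27 and 14.42 in chow. The groups overlapped for all 3 genes, whose differences ran from -0.16 to 0.08. Col2a1, Col11a2 and Col27a1, the remaining measured fibrillar genes and best known from cartilage, had 5-day means of 7.99, 7.71 and 9.27, against 7.94, 7.76 and 9.25 in chow. Of the 9 fibrillar genes 6 were higher and 3 lower, with a median difference of 0.05, beside 0.00 over all genes.

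**Figure D1:**
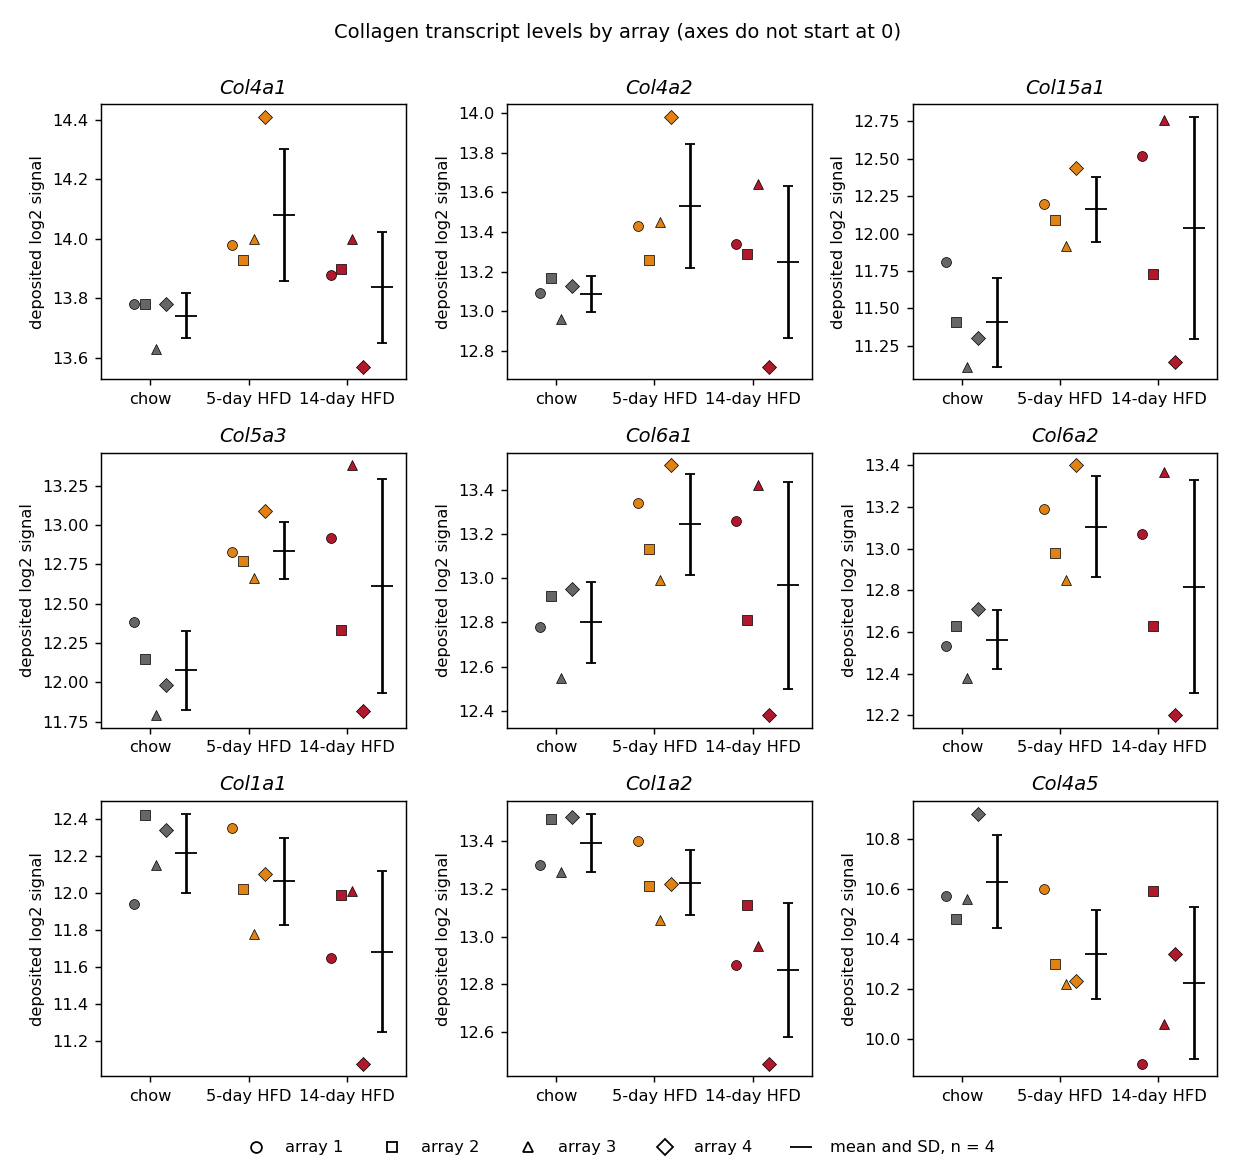
Deposited signal, taken as log2, of 9 collagen genes in each array (points, shaped by array number) for chow, 5-day HFD and 14-day HFD, with the group mean and SD (n = 4). The 5-day arrays lie above all chow arrays for Col4a1, Col4a2, Col15a1, Col5a3, Col6a1 and Col6a2, and 14-day array 4 is the lowest of its group for 8 of the 9 genes, Col4a5 being the exception.

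The basement membrane genes split in direction. Col4a1 read 13.98, 13.93, 14.00 and 14.41 in the 5-day arrays, against 13.78, 13.78, 13.63 and 13.78 in chow, a difference of 0.33 ± 0.12 (adjusted p = 0.382 in limma). Its neighbour Col4a2 read 13.43, 13.26, 13.45 and 13.98 in the 5-day arrays, against 13.09, 13.17, 12.96 and 13.13 in chow, a difference of 0.44 ± 0.19 (adjusted p = 0.47 in limma). In both genes 5-day array 4 stood above the rest, and without it the differences were 0.22 for Col4a1 and 0.29 for Col4a2. Col15a1, a multiplexin that links basement membrane to the fibres below it, read 12.20, 12.09, 11.92 and 12.44 in the 5-day arrays, against 11.81, 11.41, 11.11 and 11.30 in chow. That is 1.69-fold (0.76 ± 0.31, adjusted p = 0.446 in limma). Col18a1, the multiplexin that holds the endostatin fragment, averaged 11.61 ± 0.171 in the 5-day arrays and 11.48 ± 0.0723 in chow (SD, n = 4 each), and its groups overlapped.

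All 4 chains of the restricted type IV networks were lower at 5 days, by 0.24 to 0.42 log2 units, with overlapping groups. Col4a3 read 7.92, 8.04, 7.84 and 7.59 in the 5-day arrays, against 7.93, 8.28, 8.09 and 8.07 in chow (-0.25 ± 0.12, adjusted p = 0.529 in limma; -0.16 without 5-day array 4). Col4a4 averaged 8.46 ± 0.277 in the 5-day arrays and 8.88 ± 0.765 in chow (SD, n = 4 each), the wide chow spread coming from array 1 at 7.80. Col4a5 averaged 10.34 ± 0.18 in the 5-day arrays and 10.63 ± 0.185 in chow, and Col4a6 8.84 ± 0.262 in the 5-day arrays and 9.09 ± 0.104 in chow (SD, n = 4 each). The class as a whole was split evenly, 4 genes higher and 4 lower, so that its median of -0.06 describes neither side.

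Among the other collagens the type VI chains Col6a1 and Col6a2 were those whose groups did not overlap. Col6a2 read 13.19, 12.98, 12.85 and 13.40 in the 5-day arrays, against 12.53, 12.63, 12.38 and 12.71 in chow (0.54 ± 0.22, adjusted p = 0.446 in limma). Col6a1 read 13.34, 13.13, 12.99 and 13.51 in the 5-day arrays, against 12.78, 12.92, 12.55 and 12.95 in chow (0.44 ± 0.21, adjusted p = 0.509 in limma). Col6a3, the large chain from which the fragment endotrophin is cut, read 12.37, 12.32, 11.93 and 12.64 in the 5-day arrays, against 12.04, 12.12, 11.94 and 12.05 in chow. For Col6a3 the 5-day array 3 lay below the chow arrays and the groups overlapped, as they did for Col6a4, a minor type VI chain with a difference of 0.01. Col8a2, a short-chain collagen of sheet-like matrices, read 8.01, 7.43, 7.60 and 7.18 in the 5-day arrays, against 7.45, 8.66, 8.37 and 8.60 in chow (-0.72 ± 0.34, adjusted p = 0.512 in limma). Its fold of 0.609 was the most extreme of any collagen downwards, but chow array 1 lay among the 5-day arrays. Of the 17 genes 8 were higher and 9 lower, with a median of -0.01; of the 7 FACIT genes 5 were lower.

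Marker values moved beside these differences, and their part in them was not tested. The mean of 10 endothelial markers was 11.49 in 5-day array 4, the array with the highest Col4a1, Col4a2, Col5a1, Col5a2, Col6a1, Col6a2 and Col6a3, and 10.55 to 10.74 in the other 5-day arrays, against 10.50 to 10.85 in chow. The mean of 10 mesothelial markers was 9.76 to 10.54 in the 5-day arrays, against 10.49 to 10.86 in chow, and was lowest in 5-day array 4, which also had the lowest Col4a6 and Col8a2. Its members did not move alike: Krt18 read 11.16, 10.75, 11.56 and 9.06 in the 5-day arrays, against 8.46 to 10.51 in chow. Array 4 was not the lowest 5-day array for Msln or Gpm6a, but was for every other gene of the list. The mean of 10 fibroblast and adipocyte progenitor markers was 11.79 to 12.17 in the 5-day arrays, against 12.07 to 12.16 in chow. That of 10 smooth muscle and pericyte markers was 11.80, 11.75, 10.19 and 10.55 in the 5-day arrays, against 10.22 to 10.66 in chow. In this list Rgs5 read 13.30 and 13.16 in 5-day arrays 1 and 2, against 13.05 to 13.29 in chow. With the epididymis and testis mean as a covariate, limma called 10 collagens at 5 days, 9 of them higher (Col4a1 0.55 ± 0.05, adjusted p = 0.00246) and Col4a6 lower, among 544 genes called in all. That covariate was 11.03 to 11.67 in 5-day arrays 1 to 3 and 7.08 in 5-day array 4, against 7.21 to 8.22 in chow. The adjusted 5-day differences thus rest on 5-day array 4 and on the fitted slope. Their calls are no further evidence of a rise in all 4 arrays. With array weights it called 8 collagens, all higher, among 2015 genes, and with only the chow and 5-day arrays 1, Col5a3 (adjusted p = 0.0399), among 213.

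**Figure D2:**
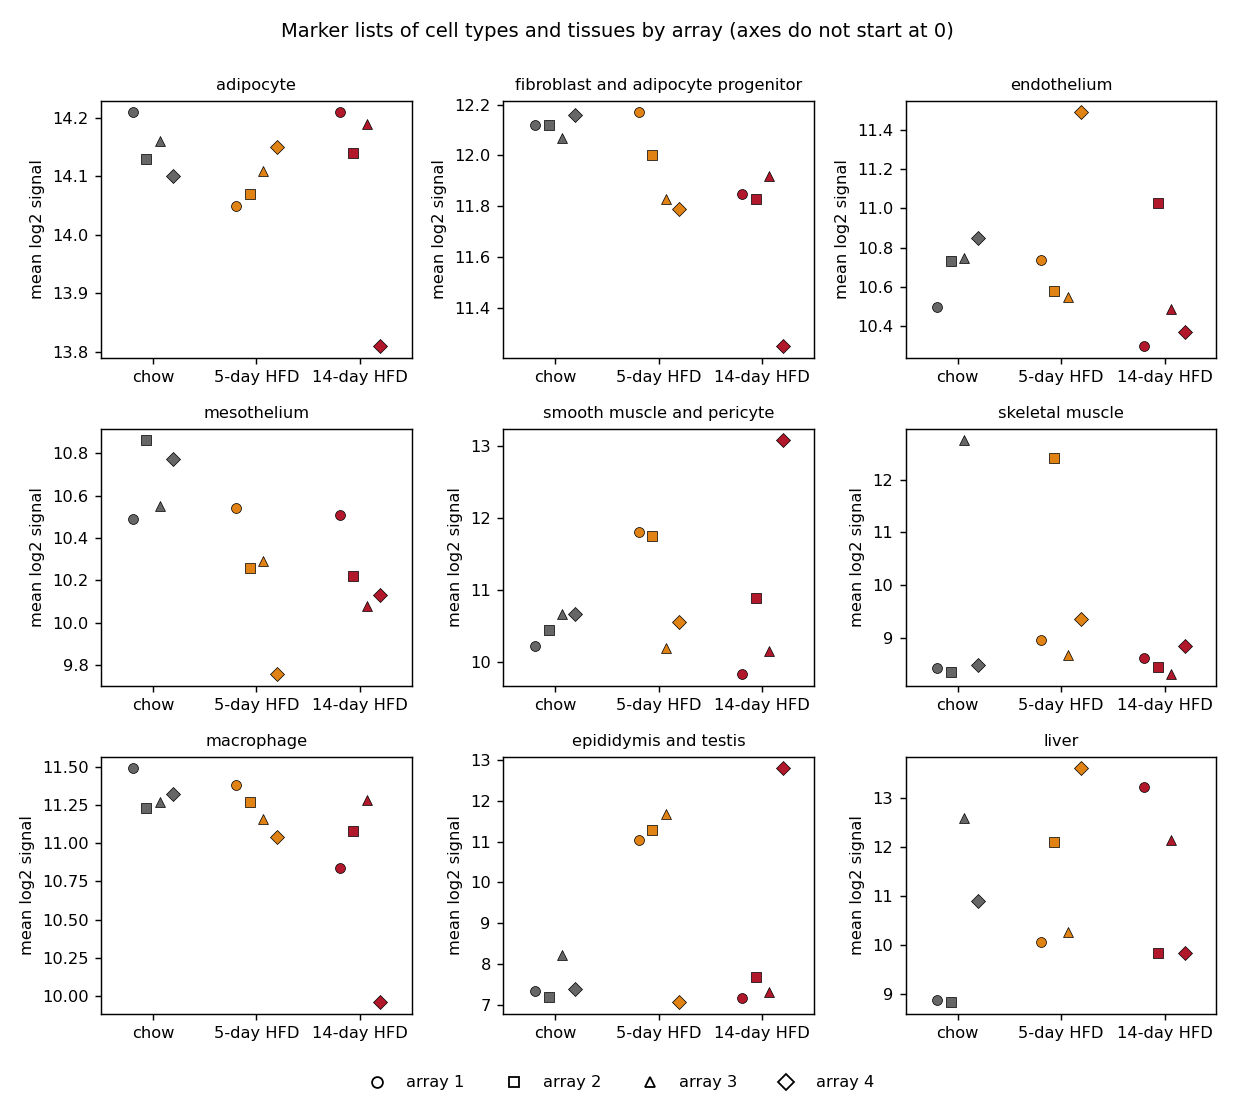
Mean log2 signal of 9 marker lists in each array, by group and shaped by array number. Epididymis and testis genes are at 11.03 to 12.79 in 4 HFD arrays and at most 8.22 elsewhere, endothelial genes peak at 11.49 in 5-day array 4, and fibroblast and progenitor genes are lowest, at 11.25, in 14-day array 4.

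After 14 days the type I chains Col1a1 and Col1a2 were at 0.692 of chow, the FACIT gene Col14a1 at 0.704 and Col4a5 at 0.755, while Col5a3 and Col15a1 averaged 1.46-fold and 1.55-fold of chow with widely spread arrays. None of the 34 collagens passed an adjusted p of 0.05 in limma, and neither did any of the 13312 genes (0%). At an unadjusted p under 0.05, 6 collagens (17.6%) were lower and 0 higher in limma, against 4.3% and 3.67% of all genes (7.97% in all). Lower without overlap were 3 collagens (8.82%), against 2.26% of all genes; 0 were higher without overlap, against 2.37% (4.63% in all). Left-out arrays moved the 6 lower genes to 3 without chow array 2 and to 8 without chow array 1 or 14-day array 2. The 0 higher became 1 without chow array 1 or 14-day array 2, and 5 without 14-day array 4.

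Col1a2 read 12.88, 13.13, 12.96 and 12.47 in the 14-day arrays, against 13.30, 13.49, 13.27 and 13.50 in chow. The highest 14-day array lay below the lowest chow array, and the difference was -0.53 ± 0.13 (adjusted p = 0.466 in limma). Without 14-day array 4 it was -0.40. Col1a1 read 11.65, 11.99, 12.01 and 11.08 in the 14-day arrays, against 11.94, 12.42, 12.15 and 12.34 in chow (-0.53 ± 0.20, adjusted p = 0.58 in limma). Here the groups overlapped, and the difference was -0.33 without 14-day array 4. Col3a1 read 14.14, 14.32, 14.40 and 13.63 in the 14-day arrays, against 14.34, 14.36, 14.27 and 14.42 in chow (-0.23 ± 0.14, adjusted p = 0.723 in limma), and its difference without that array was -0.06.

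The type V chains parted at 14 days. Col5a3 read 12.92, 12.33, 13.38 and 11.82 in the 14-day arrays, against 12.38, 12.15, 11.79 and 11.98 in chow, a difference of 0.54 ± 0.28 (adjusted p = 0.666 in limma). Arrays 1 and 3 were above all chow arrays and array 4 was near their low end; without 14-day array 3 the difference was 0.29 (0.285). Col5a1 averaged 11.31 ± 0.629 in the 14-day arrays and 11.27 ± 0.12 in chow, and Col5a2 12.08 ± 0.592 in the 14-day arrays and 12.17 ± 0.115 in chow (SD, n = 4 each). In each of the 3 chains 14-day array 4 was the lowest of its group by a wide margin. Over the 9 fibrillar genes, 4 were higher and 5 lower, with a median of -0.10, beside 0.02 over all genes.

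Within the 14-day group Col15a1 was the most widely spread basement membrane gene. It read 12.52, 11.73, 12.76 and 11.14 in the 14-day arrays, against 11.81, 11.41, 11.11 and 11.30 in chow (0.63 ± 0.31, adjusted p = 0.641 in limma). The same arrays, 1 and 3, that were high for Col5a3 were high for Col15a1, and without array 3 its difference was 0.39. Col4a1 and Col4a2 lay closer to chow than at 5 days: Col4a1 read 13.88, 13.90, 14.00 and 13.57 and Col4a2 13.34, 13.29, 13.64 and 12.72 in the 14-day arrays, for differences of 0.09 and 0.16. In both genes 3 of the 4 arrays were above every chow array and array 4 was below every chow array. Col4a5 read 9.90, 10.59, 10.06 and 10.34 in the 14-day arrays, against 10.57, 10.48, 10.56 and 10.90 in chow (-0.41 ± 0.15, adjusted p = 0.58 in limma). Col4a3 read 7.71, 7.99, 7.51 and 7.91 in the 14-day arrays, against 7.93, 8.28, 8.09 and 8.07 in chow (-0.31 ± 0.12, adjusted p = 0.58 in limma). Both overlapped chow in 1 array each, and all 4 chains Col4a3 to Col4a6 were again below chow, by 0.11 to 0.41. Col18a1 averaged 11.65 ± 0.273 in the 14-day arrays and 11.48 ± 0.0723 in chow (SD, n = 4 each; adjusted p = 0.772 in limma).

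Col14a1 and Col9a1, both fibril-associated, were the other genes whose 14-day arrays lay wholly below chow. Col14a1 read 9.90, 9.72, 10.09 and 9.26 in the 14-day arrays, against 10.24, 10.41, 10.16 and 10.18 in chow (-0.51 ± 0.20, adjusted p = 0.58 in limma). Col9a1, a cartilage collagen near the low end of the signal here, read 8.01, 8.09, 8.0 and 8.14 in the 14-day arrays, against 8.29, 8.27, 8.17 and 8.16 in chow, a difference of only -0.16 ± 0.06 (adjusted p = 0.58 in limma). Col16a1, a further FACIT gene, averaged 9.37 ± 0.148 in the 14-day arrays and 9.56 ± 0.136 in chow (SD, n = 4 each; adjusted p = 0.716 in limma), a difference of -0.19 that was -0.12 without 14-day array 4. Col8a2 read 7.55, 8.76, 7.43 and 7.52 in the 14-day arrays, so that array 2 was above every chow array and the others lay near chow array 1. The type VI chains Col6a1, Col6a2 and Col6a3 were 0.03 to 0.25 above chow and Col6a4 was 0.05 below it. Col6a2 read 13.07, 12.63, 13.37 and 12.20, arrays 1 and 3 being the high ones as for Col5a3. Over the 17 other collagens 9 were higher and 8 lower, with a median of 0.01.

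**Figure D3:**
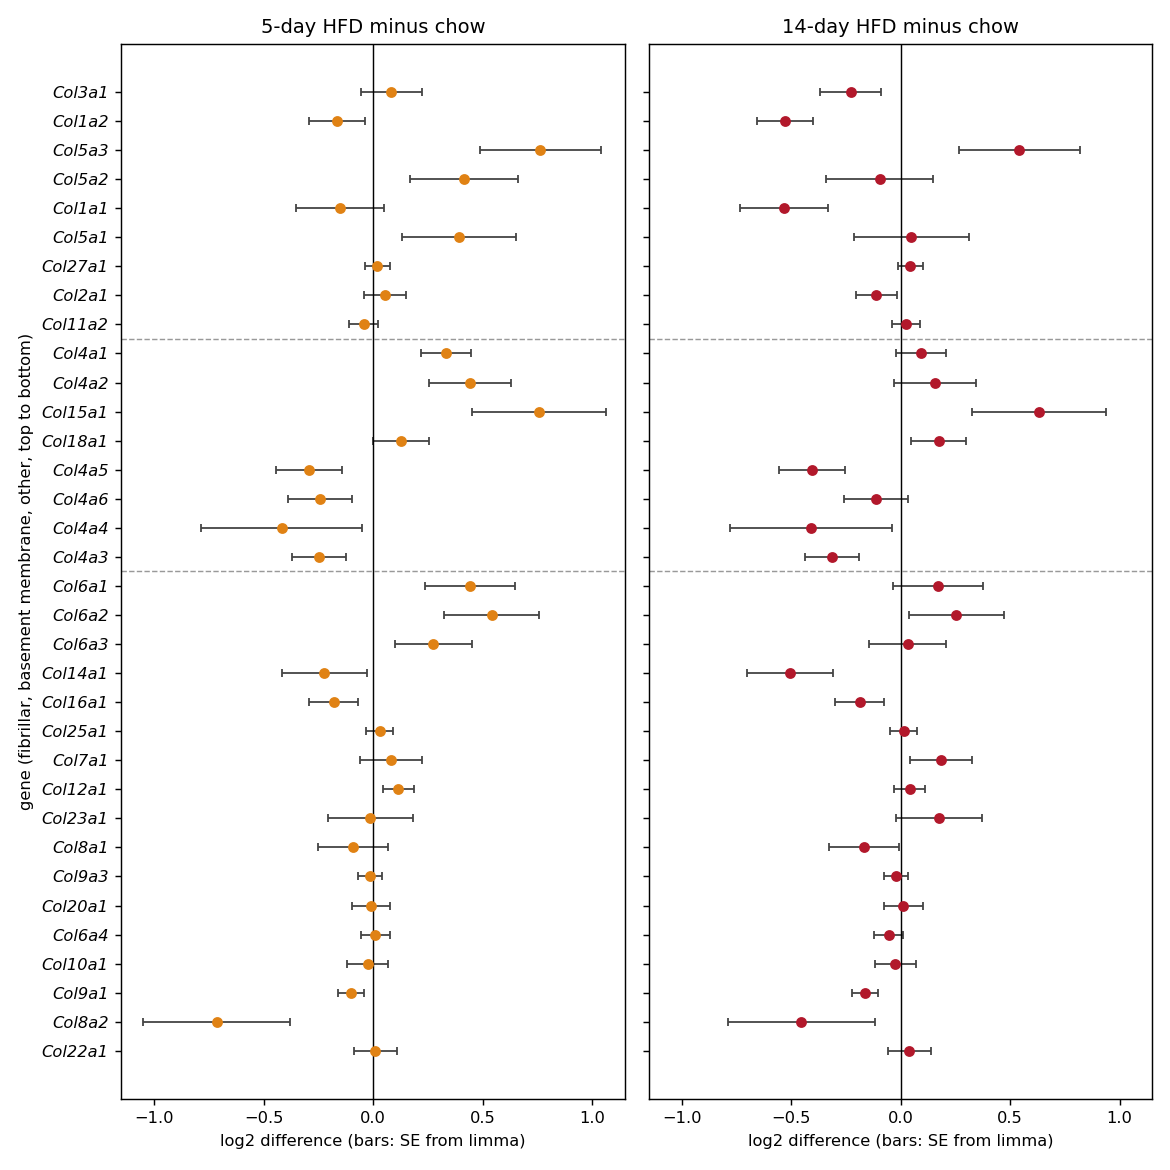
Differences from chow (log2, points; bars are the limma SE) of the 34 collagens that passed the filter, after 5 days (left) and 14 days (right) of HFD, by class and, within a class, by mean signal. At 5 days type V, Col4a1, Col4a2, Col15a1 and type VI lie right of 0 and Col4a3 to Col4a6 left of it; at 14 days Col1a1, Col1a2 and Col14a1 lie furthest left together with Col8a2, Col4a4 and Col4a5. Both panels are set against the same 4 chow arrays.

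At 14 days the fibroblast and adipocyte progenitor markers (10 of 10 measured) averaged 11.25 to 11.92, against 12.07 to 12.16 in chow, so the groups did not overlap for the mean of this list, as they did not for Col1a2 and Col14a1. Of its genes Pdgfra, Cd34, Dcn, Lum and Clec3b lay wholly below chow and the others did not. Dpt read 13.55, 13.39, 13.79 and 12.64 in the 14-day arrays, against 13.09 to 13.43 in chow. Dpp4 was the highest of all 12 arrays in 14-day array 4, at 10.19. The list mean was 11.71 ± 0.312 in the 14-day arrays and 12.12 ± 0.0401 in chow (SD, n = 4 each). Array 4, with the lowest Col1a1, Col1a2 and Col14a1, also had the lowest progenitor mean, the lowest adipocyte mean (13.81) and the lowest macrophage mean (9.96), and the highest smooth muscle (13.08) and epididymis means (12.79). Whether these markers have a part in the collagen values was not tested. Without that array 4 collagens were lower and 5 higher at an unadjusted p under 0.05 in limma, and with array weights limma called 12, 6 in each direction, among 2981 genes.

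Set against 5 days, most collagens were lower by sign at 14 days: 23 of 34, including 7 of 9 fibrillar, 5 of 8 basement membrane and 11 of 17 other genes. Of all 13312 genes, 5853 were lower and 7457 higher. Some of the 23 barely differed, such as Col9a3 (-0.005) and Col16a1 (-0.007). The fibrillar median was -0.31, the basement membrane median -0.09 and that of the others -0.02 (-0.015), beside 0.01 over all genes. In limma 0 collagens and 0% of all genes passed an adjusted p of 0.05, and 2 collagens (5.88%), both lower, had an unadjusted p under 0.05, against 0.789% of all genes as lower, 1.77% as higher and 2.55% in all. The count of 2 lay between 1 and 9 as single arrays were left out, 9 being without 14-day array 3. Groups overlapped for every collagen; they did not in 0.646% of all genes as higher and 0.278% as lower (0.924% in all). The 14-day and 5-day comparisons with chow share their chow arrays, and this one uses arrays of both.

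Col1a2 differed by -0.37 ± 0.13 (adjusted p = 0.999 in limma), and 3 of its 14-day arrays (12.88, 12.96 and 12.47) were below the lowest 5-day array (13.07). Col3a1 differed by -0.31 ± 0.14, with 14.14, 14.32, 14.40 and 13.63 in the 14-day arrays and 14.49, 14.42, 14.27 and 14.54 in the 5-day arrays. Col5a2 read 12.31, 12.28, 12.52 and 11.20 in the 14-day arrays and 12.64, 12.44, 12.31 and 12.96 in the 5-day arrays, which gave -0.51 ± 0.25. Both differences had an adjusted p of 0.999 in limma. These values leaned on 14-day array 4: without it Col1a2 stood at -0.24, Col5a2 at -0.22 and the fibrillar median at -0.10 (-0.096). Col1a1 (-0.38), Col4a1 (-0.24), Col4a2 (-0.28), Col6a1 (-0.27), Col6a2 (-0.29), Col6a3 (-0.24) and Col14a1 (-0.28) were lower with all arrays in the fit, and Col4a6 was 0.13 higher. Without 14-day array 4 these values were nearer 0: -0.18 for Col1a1, -0.15 for Col4a1, -0.11 (-0.105) for Col4a2, -0.08 for both Col6a1 and Col6a2, -0.10 for Col6a3, -0.12 for Col14a1, -0.14 for Col3a1 and 0.004 for Col4a6.

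**Figure D4:**
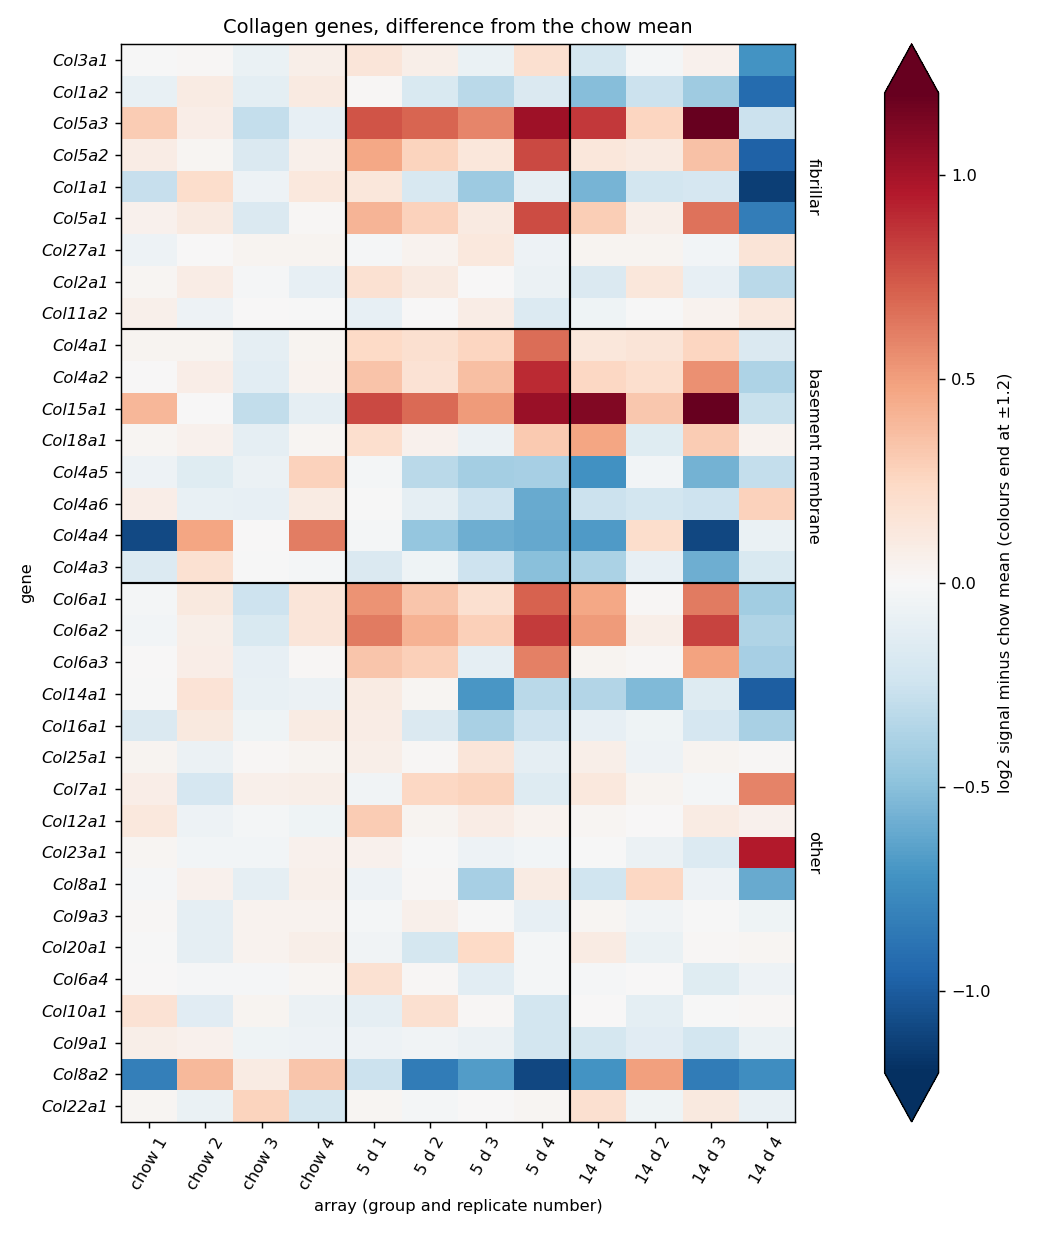
Log2 signal minus the chow mean for the 34 collagens (rows, by class and mean signal) in the 12 arrays (columns). In 14-day array 4 the cells are blue for types I, III, V and VI and red for Col23a1 and Col7a1; 5-day array 4 and 14-day arrays 1 and 3 are darkest red for Col5a3 and Col15a1.

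The arrays numbered 4 in both HFD groups stood apart most often. Of the 34 genes, 14-day array 4 was the lowest of all 12 arrays in 13, among them 6 of the 9 fibrillar genes, and the highest in 5. By contrast 5-day array 4 was the highest in 8 and the lowest in 6. Averaged over the fibrillar genes, deviations from the chow mean were 0.02 to 0.24 in the 5-day arrays, -0.54 to 0.18 in the 14-day arrays and -0.10 to 0.06 in chow. For the basement membrane genes the same averages were -0.05 to 0.17 at 5 days and -0.13 to 0.05 at 14 days, and for the others -0.08 to 0.10 at 5 days and -0.15 to 0.02 at 14 days.

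The range over all 12 arrays was at least 1 log2 unit in 14 of the 34 genes. They include types I, V, Col4a2, Col15a1, Col6a1 and Col6a2 among the abundant ones. The range was under 0.5 in 10 genes (0.171 to 0.483), all with means of at most 9.40: Col10a1, Col11a2, Col12a1, Col20a1, Col22a1, Col25a1, Col27a1, Col6a4, Col9a1 and Col9a3. The 2 measured transmembrane collagens, Col23a1 and Col25a1, differed from chow by -0.01 to 0.03 at 5 days. The 8 genes under the filter (Col11a1, Col13a1, Col17a1, Col19a1, Col24a1, Col26a1, Col6a5 and Col9a2) had means of 4.54 to 7.40 over all arrays and entered no count above.

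Of the 42 genes 27 have more than 1 probe set, 82 in all, and some disagree. For Col1a1 the second probe set gave 0.20 at 5 days and -0.13 at 14 days, where the one used gave -0.15 and -0.53. For Col1a2 the second gave 0.17 and -0.30, against -0.16 and -0.53 for the one used, and for Col3a1 0.51 and -0.10, against 0.08 and -0.23. The type I differences at 14 days thus had the same sign but were smaller in the second probe sets. At 5 days the second type I sets had the opposite sign. Type V was steadier: at 5 days the further probe sets gave 0.42 and 0.39 for Col5a1 and 0.48 for Col5a2, though the second set of Col5a3, at a mean of 6.71 and so under the filter, gave 0.06. Second sets gave 0.22 for Col4a1 and 0.52 for Col6a2 at 5 days, -0.57 for Col4a5 at 14 days, and -0.59 and -0.53 for Col14a1 at 14 days. For Col4a1 at 14 days the sign differed, with -0.07 in the second set and 0.09 in the one used.

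The machinery that makes, trims and senses collagen was read from 5 lists with 48 genes over the filter. They were chosen by role, but with earlier results of these data known. None passed an adjusted p of 0.05 in limma in any comparison, and at an unadjusted p under 0.05 there were 2 higher and 6 lower at 5 days (4.17% and 12.5%, against 4.43% and 5.67% of all genes). At 14 days there were 1 higher and 6 lower (2.08% and 12.5%, against 3.67% and 4.3%), and at 14 against 5 days 1 higher and 3 lower (2.08% and 6.25%, against 1.77% and 0.789%). Chaperones and secretion factors (7 genes) were above chow by sign in 7 of 7 at both times, with medians of 0.18 and 0.17. For Serpinh1 the 14-day difference was only 0.002. Over all 13312 genes, 6594 were higher and 6710 lower at 5 days, and 7344 higher and 5962 lower at 14 days. Sec31a, a coat protein of the vesicles that carry procollagen, read 11.68, 11.48, 11.71 and 11.90 in the 14-day arrays, against 11.40, 11.58, 11.49 and 11.49 in chow (0.20 ± 0.09, adjusted p = 0.616 in limma; 0.13 without 14-day array 4). Hydroxylases and glycosyltransferases (13 genes) were split at 5 days, 6 higher and 7 lower, and lower in 10 of 13 at 14 days (median -0.10). P4ha1, a prolyl 4-hydroxylase subunit, read 9.53, 9.44, 9.38 and 9.65 in the 5-day arrays and 9.67, 9.66, 9.52 and 9.06 in the 14-day arrays, against 9.70, 10.02, 9.95 and 9.82 in chow. Every HFD array lay below every chow array for this gene (5 days -0.37 ± 0.13, adjusted p = 0.387; 14 days -0.40 ± 0.13, adjusted p = 0.553, in limma); the 14-day difference was -0.26 without array 4. P3h3, a prolyl 3-hydroxylase family member, differed by -0.26 ± 0.12 at 5 days (adjusted p = 0.492 in limma) and -0.47 ± 0.12 at 14 days (adjusted p = 0.466), and Colgalt1, which adds galactose to collagen, by 0.15 ± 0.05 at 5 days (adjusted p = 0.387).

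Processing and crosslinking genes were lower by sign at 14 days in 7 of 7, with a median of -0.22, and in 5 of 7 at 5 days (-0.07). Of all 13312 genes, 5962 were lower at 14 days and 6710 at 5 days. For Loxl4 the 14-day difference was only -0.005. Pcolce, which enhances removal of the procollagen C-terminal end, read 11.16, 11.18, 11.24 and 10.37 in the 14-day arrays, against 11.28, 11.77, 11.50 and 11.69 in chow (-0.57 ± 0.20, adjusted p = 0.58 in limma). All its 14-day arrays were below chow, and the difference was -0.37 (-0.365) without array 4. Lox, the crosslinking lysyl oxidase, read 10.72, 10.78, 10.90 and 9.81 in the 14-day arrays, against 11.04, 10.86, 10.89 and 11.38 in the 5-day arrays (-0.49 ± 0.21), and Bmp1, the C-proteinase, differed by -0.29 ± 0.11, both with an adjusted p of 0.999 in limma. Without 14-day array 4 these differences were -0.24 for Lox and -0.18 for Bmp1. Lox averaged 10.69 in chow, and of the 14-day arrays only array 4 lay below that mean. Of 6 receptor and uptake genes 4 were higher and 2 lower at each time (medians 0.01 and 0.10). Ddr2, a receptor for fibrillar collagen, read 11.06, 10.86, 10.88 and 10.91 in the 5-day arrays and 10.91, 11.14, 10.80 and 10.55 in the 14-day arrays, against 11.21, 11.21, 11.26 and 11.34 in chow. Both HFD groups lay wholly below chow (5 days -0.33 ± 0.11, adjusted p = 0.364; 14 days -0.41 ± 0.11, adjusted p = 0.466, in limma). Ddr1, the related receptor, was 0.33 ± 0.13 higher at 14 than at 5 days (adjusted p = 0.999 in limma).

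Profibrotic signals and targets (15 genes) were lower in 11 of 15 at both times, with medians of -0.15 and -0.09. Of all 13312 genes, 6710 were lower at 5 days and 5962 at 14 days. Pdgfra, a growth factor receptor that marks progenitors and also stands in the progenitor marker list, read 11.18, 11.02, 10.92 and 10.84 in the 5-day arrays and 10.90, 11.22, 10.74 and 10.80 in the 14-day arrays, against 11.23, 11.60, 11.47 and 11.59 in chow (5 days -0.48 ± 0.12, adjusted p = 0.331; 14 days -0.56 ± 0.12, adjusted p = 0.407, in limma). Its HFD arrays all lay below chow. Smad7, an inhibitor of TGF-beta signalling, differed by -0.45 ± 0.13 at 5 days (adjusted p = 0.347 in limma), and Tgfbr2, the receptor, by -0.37 ± 0.10 at 14 days (adjusted p = 0.488). Although an inhibitor, Smad7 is among the 11 lower genes at both times, so that count is of signs and not of signalling. Tgfb1, the ligand, was 0.24 ± 0.07 higher at 5 days than in chow (adjusted p = 0.355 in limma) and 0.21 ± 0.07 lower at 14 than at 5 days (adjusted p = 0.999).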

How the data were processed

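The authors deposited 1 table of signals for 45098 probe sets in 12 samples, which were taken as log2. The log base, and how probes were summarised and arrays normalized, are not given in the sources used here. Nothing was renormalized. The platform annotation gave 1 symbol to 34945 probe sets, several to 932 (not used) and none to 9160; 61 were controls. Each of 18193 genes was read from its probe set of highest mean, and 13312 passed the filter. All 42 members matched RefSeq (GRCm38.p6) by Entrez ID. All 12 arrays entered 1 limma fit with a mean per group (lmFit and eBayes with trend, limma 3.58.1, R 4.3.3), two-sided, with Benjamini-Hochberg adjustment over all 13312 genes. "Higher" and "lower" without a stated test are signs of the fitted difference. Differences with p are named for the 4 members of smallest p per class and comparison, and for up to 3 genes per pathway list among those with an unadjusted p under 0.05. Members, classes and lists were chosen with earlier results of these data known. Other differences are given as values. Precision rests on 4 arrays per group. The fit was tested on simulated data. Alternatives were other scaling, filters, probe set rules, variance models, array weights, marker covariates, a replicate block and leaving out arrays.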

Additional observations from a re-analysis of the deposited data

Results flagged for a closer look

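In 102 sets of 4 arrays (34 genes in 3 groups), 8 had 1 array far from the other 3, with a gap past Dixon's critical value for 4 samples; about 5.1 would be flagged by chance, at 1 in 20. At 5 days Col4a1 stood at 14.41 in array 4, with the others at 13.93 to 14.00, and Col9a1 at 8.0 in the same array, with the others at 8.15 to 8.18. At 14 days array 4 was high for Col23a1, a transmembrane collagen, at 9.64 (others 8.52 to 8.68) and for Col4a6 at 9.36 (others 8.83 to 8.87). In 14-day array 2 Col8a2 stood at 8.76 (others 7.43 to 7.55) and Col10a1 at 8.05 (others 8.16 to 8.18). In chow Col4a1 stood at 13.63 in array 3 (the others at 13.78) and Col7a1 at 8.60 in array 2 (others 8.86 to 8.88).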

How the results depend on the processing

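Over 28 alternative settings, 1838 values were recomputed: 1771 kept their direction and their side of the threshold or moved by less than the spread between arrays, 50 passed the threshold where the reported value did not, 13 medians or counts moved, and 4 reversed; the cause of these changes was not tested. Collagens called numbered 8, 12 and 3 with array weights (5 days against chow, 14 days against chow, 14 against 5 days), 10, 0 and 3 with the epididymis and testis covariate, 4, 0 and 0 without the arrays high in epididymis genes (which leaves 1 of the 5-day arrays, assumed to vary like the others), 1, 0 and 0 with only the groups compared, and 0 in every other setting. Calls over all genes were 2015, 2981 and 2212 with array weights, 544, 0 and 39 with the covariate, 109, 0 and 0 without the epididymis-high arrays, 213, 0 and 0 with only the groups compared, 123, 2 and 0 without 14-day array 4, and 1, 20 and 0 without 14-day array 2. Basement membrane medians were 0.23 at 5 days and 0.13 at 14 days (0.126) under the 60th percentile filter and -0.24 and -0.11 over every probe set, and the median of the other collagens at 5 days was 0.056 under that filter. The fibrillar median at 14 against 5 days ran from -0.40 to -0.10 over arrays left out, and 0 collagens were called when any array was left out. Unadjusted counts moved more: at 5 days 5 higher became 1 without chow array 3 or without 5-day array 4 and 8 without 14-day array 4. The 0 lower at 5 days became 3 without chow array 1 or without 5-day array 1. Reversed were Col1a2 at 5 days (0.004 with the covariate) and, at 14 against 5 days with array weights, Col4a6 (-0.14), Col6a1 (0.02) and Col6a2 (0.009). Deviations of same-numbered arrays of different groups correlated at -0.725 to 0.408 over 12 pairs (mean -0.196). For arrays of different numbers the range was -0.58 to 0.711 over 36 pairs (mean 0.046). Same-numbered arrays were thus no more alike, which cannot show whether the samples were paired by design. With the replicate block 0 collagens were called and the fibrillar median at 5 days stayed at 0.05.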

Other observations

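Values chosen after they were seen, with no test beyond the fit, follow. Col6a5, a minor type VI chain under the signal filter, read 6.58, 7.38, 6.83 and 6.63 in the 14-day arrays, against 7.42, 7.5, 7.42 and 7.80 in chow, a difference of -0.68. Col12a1, a FACIT gene, had a second probe set with differences of 0.35 at 5 days and 0.58 at 14 days, where the probe set used gave 0.12 and 0.04. Col17a1, a collagen of epithelial hemidesmosomes under the filter, read 6.38 in 14-day array 4, with the highest epididymis and testis mean. Col7a1, which forms anchoring fibrils below epithelia, read 9.40 in the same array, against 8.60 to 8.88 in chow.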
